A study of Mus musculus with 12 samples.

Results

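Translation initiation factors were described at the level of their mRNA in mouse Th1 cells, the interferon-gamma-producing class of CD4+ helper T cells, that lacked or kept Sdhc, the gene of a subunit of succinate dehydrogenase in the mitochondrial inner membrane. The members were all rows of the expression table whose gene symbol starts with Eif1, Eif2, Eif3, Eif4, Eif5 or Eif6, without Eif2s3x and Eif2s3y. The rule used names and no measured value, and it found 52 of 18929 rows. Of these, 51 passed a filter on low values (a value over 10 in at least 3 libraries). Eif4ebp3, a 4E-BP-type repressor, did not: it had 9.04, 4.52 and 9.69 normalised counts in Sdhc cKO cells and 5.56, 3.92 and 8.80 normalised counts in control cells. Eif3j2 passed close to the floor.

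RNA-seq was made from sorted C57BL/6 cells kept in Th1-polarising culture until day 5. The 3 Sdhc cKO libraries come from cells with a conditional knockout of Sdhc, and the 3 control libraries from cells of WT genotype. The labels used here name neither the Cre driver nor the animals or cultures behind a library, so a p-value here speaks of variation from library to library, part of which may be technical. The series holds 12 samples in 5 groups, and 6 samples in 3 groups were not analysed here.

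Initiation factors bring the ribosome to the start codon of an mRNA. eIF2, with GTP, carries the initiator tRNA to the small ribosomal subunit, eIF1, eIF1A and eIF5 help to choose the start codon, eIF3 holds the small subunit together with the mRNA, and eIF4F, made of the cap-binding eIF4E, the scaffold eIF4G and the helicase eIF4A, opens the mRNA at its cap. Phosphorylation of eIF2 by its kinases and sequestering of eIF4E by the 4E-BPs are the main brakes, and in T cells the machinery expands after activation. mRNA levels, which were measured here, do not report phosphorylation or protein amounts.

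The libraries held 19294857, 21983821 and 18144933 counted reads in Sdhc cKO cells and 20815668, 20137111 and 18272998 in control cells. Sdhc itself had 1452, 1562 and 1655 normalised counts in Sdhc cKO cells, against 1683, 1602.5 and 1892 in control cells. The groups overlapped, and the values cannot check the labels, because counts over a whole gene do not show whether a deleted exon is missing. Cd4 had 10681 to 11045 normalised counts in Sdhc cKO cells and 10113 to 10944 in control cells. Among the Th1 genes, Ifng had 858, 880 and 865 in Sdhc cKO cells, against 1342, 1461 and 1342 in control cells. Tbx21 had 1371, 1501 and 1490 in Sdhc cKO cells, against 1660, 1961 and 1760 in control cells. Both were lower in every Sdhc cKO library, as were 5.64% of all tested genes, while Cxcr3, Il12rb2 and Stat4 overlapped. Cd8a and Cd8b1 summed to 235 to 547 in Sdhc cKO cells and 278 to 368 in control cells. Summed over lists of markers, myeloid genes stood at 36.2 to 82.4 normalised counts in Sdhc cKO cells and 38.2 to 66.7 in control cells, and B cell genes, nearly all of it Ighm, at 1864 to 2070 in Sdhc cKO cells and 1624 to 1978 in control cells. The sum of 5 NK cell genes was 334 to 407 in Sdhc cKO cells and 465 to 516 in control cells, and that of 4 gamma delta T cell genes 173 to 238 in Sdhc cKO cells and 270 to 330 in control cells, so that both sums were lower in every Sdhc cKO library. No single NK cell gene separated the groups. Of the gamma delta T cell genes, Tcrg-C1 and Tcrg-C4 were lower in every Sdhc cKO library, as were 5.64% of all tested genes. Tcrg-C2 and Sox13 overlapped. The part of these lists in the results below was not tested. Most of the NK cell sum was Eomes and Klrk1, and Trdc of the gamma delta T cell list was not in the expression table. In bulk RNA, fewer cells of a type, less RNA per cell and expression of these genes by other cells cannot be told apart.

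A split inside each group bears on every result. Library 1 of each group held almost no Y-linked reads, 0.207 RPM (reads per 1e6) in Sdhc cKO library 1 and 0.048 in control library 1, while the other libraries held 193 and 189 in Sdhc cKO cells and 131 and 55.1 in control cells. The same 2 libraries stood apart on the first principal component of all tested genes, which took 49.1% of the variance. Values are therefore given per library, always in the order of library 1, 2 and 3.

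Per kilobase of exon, the members spanned a wide range of mRNA levels. The highest mean over the 6 libraries belonged to Eif3h, with 6700 normalised counts per kilobase, followed by Eif5a with 5566, Eif3f with 4915, Eif1 with 3986, Eif4b with 3012, Eif3c with 2829 and Eif4a1 with 2676. Eif5a encodes the hypusine-carrying factor that helps ribosomes through difficult peptide bonds, and Eif3h and Eif3f encode subunits of eIF3. Per kilobase of the longest transcript, Eif5a came first with 9207, Eif3h next with 8340 and Eif1 before Eif3f. The lowest levels per kilobase of exon were those of Eif3j2 (5.64), Eif4ebp3 (9.30), Eif5a2 (49.2), Eif2ak4 (55.2) and Eif2b3 (61.6). Within eIF4F the helicase mRNA Eif4a1, at 2676 normalised counts per kilobase, stood above the scaffold Eif4g1, at 1005, and the cap-binding Eif4e, at 302. The 5 eIF2B subunits lay between 61.6 and 623, and the 4 eIF2 kinases between 55.2 and 189. Over all 52 members the 2 ways of counting length gave orders with a Spearman's rho of 0.981, a description.

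**Figure D1:**
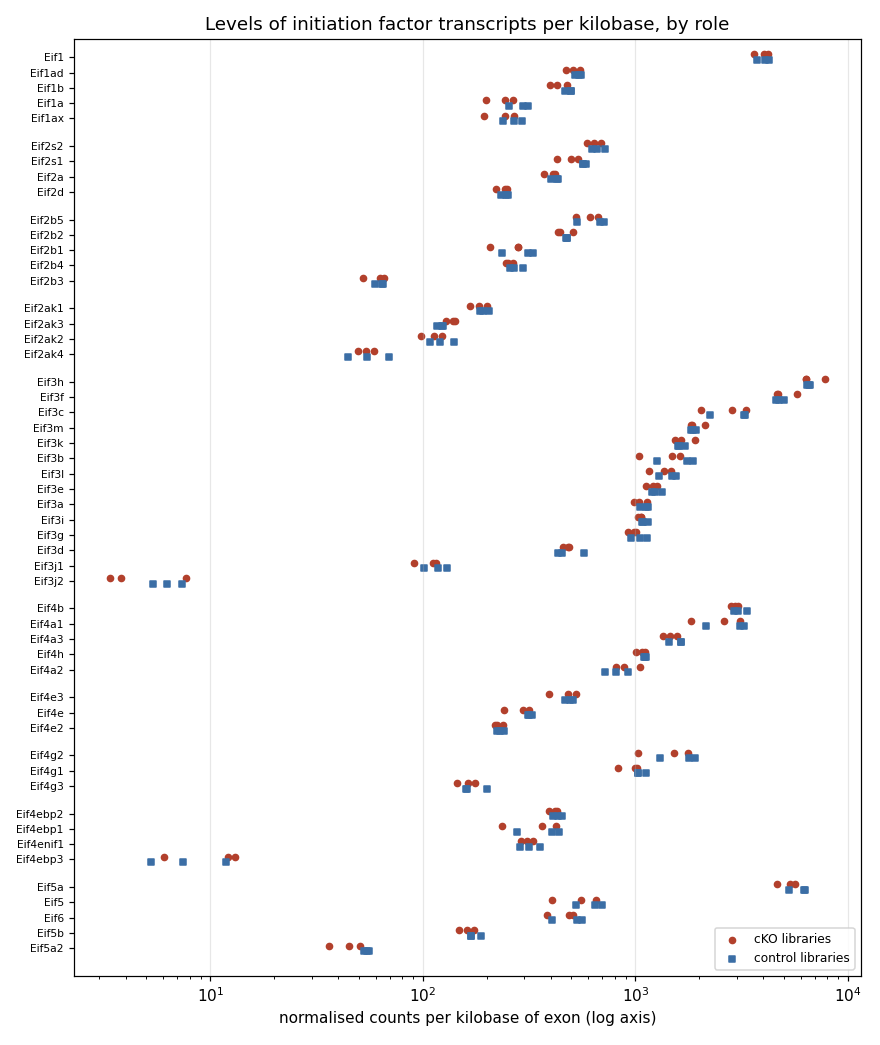
Level of each of the 52 initiation factor mRNAs in normalised counts per kilobase of exon (log axis), by role. Each of the 3 Sdhc cKO libraries is a red dot and each of the 3 control libraries a blue square. The means over all libraries, which are not drawn, reach from 5.64 (Eif3j2) to 6700 (Eif3h). The markers of the 2 groups lie close together for nearly every member.

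No initiation factor differed between Sdhc cKO and control cells past the threshold. limma on log2(value + 1), over all 12699 tested genes with Benjamini-Hochberg adjustment at 0.05, called 0 of 51 members and 0 of all genes (0%). At an unadjusted p under 0.05 there was 1 member, Eif2s1, and 445 genes (3.5% of those tested). edgeR called 0 genes (0%) and DESeq2 called 2 (0.0157%), neither of them a member. At an unadjusted p under 0.05, edgeR had 1 member (3.58% of all genes) and DESeq2 1 member (2.3%). The limma adjusted p of the members lay between 0.978 and 0.993. The fold changes were small: 45 of 51 had a value below 0 and their median, Sdhc cKO minus control, was -0.09 on the log2 scale, which is 94.0% of the control level. Over all tested genes 54.1% had a value below 0 and the median was -0.01. Without Eif3j2, the 95% intervals of the members all lay between -0.73 and 0.45, with a median standard error of 0.10.

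**Figure D2:**
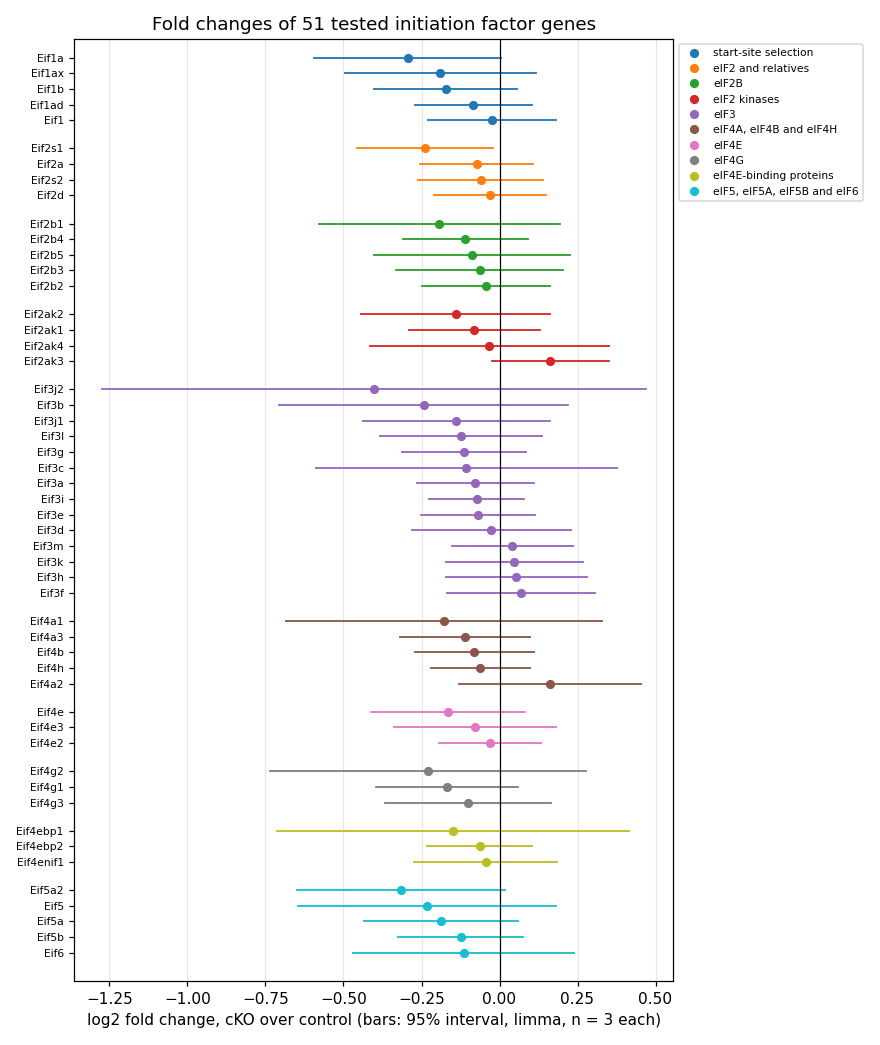
log2 fold change of the 51 tested members, Sdhc cKO minus control, by role, with 95% intervals from limma as lines. Points lie between -0.40 (Eif3j2) and 0.16 (Eif2ak3 and Eif4a2), 45 of them below 0, and 1 interval (Eif2s1) leaves out 0.

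Among the 5 members that select the start site, none passed the test. All 5 had lower Sdhc cKO values in each of the 3 same-numbered pairs of libraries, against 21.8% of all tested genes. Some of these differences were very small, such as -0.0014 (log2) for Eif1ax in pair 2. Eif1, the factor that guards against wrong start codons, had 7568, 8834 and 8487 normalised counts in Sdhc cKO cells and 7859, 8912 and 8521 in control cells, a log2 fold change of -0.02 (SE 0.09). Eif1a, which works with eIF1 on the scanning subunit, had 829, 1104 and 1017 normalised counts in Sdhc cKO cells, against 1056, 1307 and 1241 in control cells. Its mean was 983 ± 141 in Sdhc cKO cells and 1201 ± 130 in control cells (SD, n = 3 each), and its log2 fold change was -0.29 (SE 0.13, 95% interval -0.59 to 0.01). The groups overlapped through Sdhc cKO library 2, which lay above control library 1. Without Sdhc cKO library 1 its log2 fold change was -0.18. Eif1ad, which carries an eIF1A-type domain, had 1323, 1530 and 1415 normalised counts in Sdhc cKO cells and 1447, 1551 and 1520 in control cells, a log2 fold change of -0.08 (SE 0.08). The X-linked copy Eif1ax (-0.19) and Eif1b (-0.17) lay below 0 too.

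Eif2s1, which encodes the alpha subunit of eIF2 that the kinases phosphorylate, was the member with the lowest unadjusted p. It had 2116, 2654 and 2480 normalised counts in Sdhc cKO cells, against 2804, 2906 and 2807 in control cells. All 3 Sdhc cKO values lay below all 3 control values, with library 1 the lowest. The mean was 2416 ± 274 in Sdhc cKO cells and 2839 ± 58.2 in control cells (SD, n = 3 each), so that Sdhc cKO cells had 85.1% of the control level. The log2 fold change of -0.24 (SE 0.09) had a 95% interval of -0.46 to -0.02 and a limma adjusted p of 0.978, and a 2-sided exact permutation test gave p = 0.1, the smallest that 3 against 3 libraries allow. Leaving out Sdhc cKO library 1 gave a log2 fold change of -0.15. The gene lies on chromosome 12 (GRCm38, 78861819 to 78887010, plus strand). Eif2s2, the beta subunit, had 4017, 4655 and 4338 normalised counts in Sdhc cKO cells and 4226, 4474 and 4866 in control cells, which overlap. Of the gamma subunit only the genes outside the rule were in the table: Eif2s3x had 2565, 2153 and 2002 normalised counts in Sdhc cKO cells and 2785, 2516 and 3068 in control cells, and the Y-linked Eif2s3y had 0, 1351 and 1343 in Sdhc cKO cells and 0.926, 897 and 373 in control cells. Eif2a and Eif2d, which can bring initiator tRNA to the ribosome without eIF2, had log2 fold changes of -0.07 and -0.03.

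eIF2B recharges eIF2 with GTP, and none of its 5 subunits passed the test. Their log2 fold changes lay between -0.19 (Eif2b1) and -0.04 (Eif2b2). Eif2b1, the alpha subunit, had 533, 722 and 726 normalised counts in Sdhc cKO cells, against 611, 851 and 804 in control cells. Eif2b5, the catalytic epsilon subunit, had 1370, 1728 and 1590 in Sdhc cKO cells and 1375, 1850 and 1780 in control cells. In both genes library 1 was the lowest of its group, and the groups overlapped. Eif2b2, the beta subunit, was highest in library 1 of the Sdhc cKO cells, with 964, 834 and 816 normalised counts, against 885, 901 and 902 in control cells.

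The 4 eIF2 kinases had fold changes of both signs, and 0 passed the limma test. Eif2ak3 encodes PERK, the kinase that senses unfolded proteins in the endoplasmic reticulum. It had 834, 774 and 853 normalised counts in Sdhc cKO cells, against 745, 752 and 702 in control cells, on chromosome 6 (GRCm38, 70844515 to 70905245, plus strand). It was the single member whose 3 Sdhc cKO values all lay above all 3 control values. The mean was 820 ± 41.5 in Sdhc cKO cells and 733 ± 27.1 in control cells (SD, n = 3 each). The Sdhc cKO cells had 112% of the control level, with a log2 fold change of 0.16 (SE 0.08; from -0.03 to 0.35 at 95%), a limma adjusted p of 0.978 and an exact permutation p = 0.1. Eif2ak1, the kinase that responds to low heme, had 1044, 1136 and 950 normalised counts in Sdhc cKO cells and 1054, 1092 and 1159 in control cells. Eif2ak4, the kinase that responds to uncharged tRNA, had 441, 368 and 404 in Sdhc cKO cells and 518, 407 and 333 in control cells, and was highest in library 1 of both groups. Eif2ak2, which responds to double-stranded RNA, had a log2 fold change of -0.14 with overlapping groups.

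**Figure D3:**
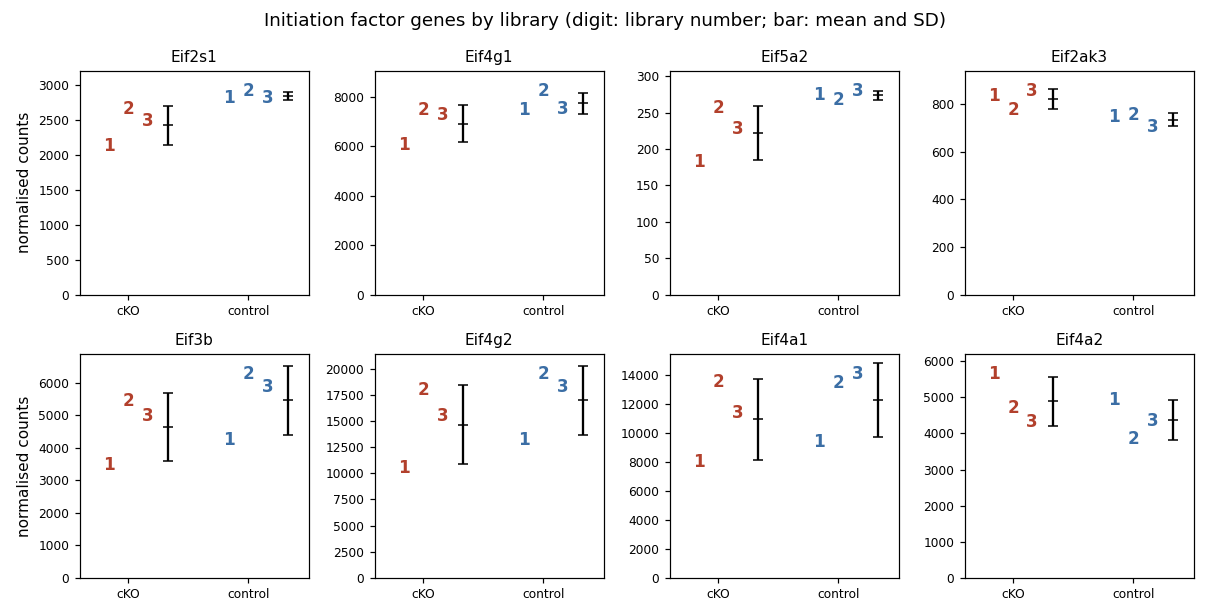
Normalised counts of 8 members in each library, Sdhc cKO left of control, with the library number as the symbol and the mean and SD (n = 3) as a bar. Eif2s1, Eif4g1 and Eif5a2 are lower and Eif2ak3 is higher in every Sdhc cKO library than in every control library, whereas in Eif3b, Eif4g2 and Eif4a1 library 1 of each group lies below the other 2, and in Eif4a2 above them.

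eIF3, the large complex that bridges the small subunit and eIF4F, contributed 14 tested members. Its log2 fold changes were below 0 for 10 members and above 0 for Eif3f (0.07), Eif3h (0.05), Eif3k (0.05) and Eif3m (0.04), and 0 passed the limma test. Eif3b, a core subunit, had 3467, 5447 and 4991 normalised counts in Sdhc cKO cells, against 4247, 6260 and 5880 in control cells, with a log2 fold change of -0.24 (SE 0.20). With 1 library left out this value ranged from -0.41 without control library 1 to -0.05 without Sdhc cKO library 1. Eif3c, another core subunit, had 7120, 11656 and 10017 in Sdhc cKO cells and 7909, 11546 and 11346 in control cells. Library 1 was the lowest of its group for both genes, and by more than the groups differed. Eif3f went the other way, with 16674, 13468 and 13590 normalised counts in Sdhc cKO cells and 14535, 13276 and 13705 in control cells, and so did Eif3h, with 12607, 10234 and 10247 in Sdhc cKO cells and 10634, 10337 and 10745 in control cells. Their values above 0 come from Sdhc cKO library 1: without it the log2 fold changes were -0.03 for Eif3f and -0.05 for Eif3h. Eif3i, a subunit with WD repeats, was lower in every Sdhc cKO library, with 3917, 3921 and 3798 normalised counts, against 3975, 4006 and 4269 in control cells, a small difference of -0.07 (SE 0.07). Eif3j2 had the lowest log2 fold change of all members, -0.40 (SE 0.38), on 8.03, 9.04 and 18.3 normalised counts in Sdhc cKO cells and 14.8, 12.7 and 17.6 in control cells. Its transcript and that of Eif3j1 share a stretch of 2379 bases at 99.4% identity, so reads can be split between them and the value is uncertain.

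The 2 helicase paralogs of eIF4A share most of their protein and take the same place in eIF4F. In library 1 of each group they lay on opposite sides of the other 2 libraries. From library 2 to library 3 both moved the same way, down in Sdhc cKO cells and up in control cells. Eif4a1, on chromosome 11, had 7964, 13480 and 11330 normalised counts in Sdhc cKO cells, against 9359, 13421 and 14028 in control cells, a log2 fold change of -0.18 (SE 0.22). Eif4a2, on chromosome 16, had 5635, 4707 and 4329 in Sdhc cKO cells, against 4929, 3838 and 4333 in control cells, a log2 fold change of 0.16 (SE 0.13). In library 1, Eif4a1 was at 64.2% of the mean of the other 2 libraries in Sdhc cKO cells and at 68.2% in control cells, and Eif4a2 at 125% in Sdhc cKO cells and 121% in control cells. Neither gene separated the groups. Without Sdhc cKO library 1 the log2 fold change was 0.03 for Eif4a1 and 0.06 for Eif4a2. A transcript of Eif4a-ps4 is 99.9% identical to Eif4a1, so part of its reads may be uncertain. Eif4b, which assists the helicase, had 12545, 13539 and 13137 normalised counts in Sdhc cKO cells and 13045, 14920 and 13549 in control cells, a log2 fold change of -0.08 (SE 0.08). Eif4h, a second helper, had a log2 fold change of -0.06, and Eif4a3, the member of the exon junction complex, of -0.11.

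The promoters of 4 members are shown because the pair of helicases, the scaffold and an eIF3 subunit differed in how they ran across the libraries. They are the 250 bases before the RefSeq start of each gene on GRCm38.p6, written 5′ to 3′ on the strand of the gene, and capitals mark CACGTG, the palindromic E-box that Myc and Max, among other factors, bind. Eif4a1 is at chr11:69672424-69672673 (minus strand), Eif4a2 at chr16:23107218-23107467 (plus strand), Eif4g1 at chr16:20672477-20672726 (plus strand) and Eif3f at chr7:108934165-108934414 (plus strand). The Eif4g1 window lies inside the gene as GENCODE annotates it, from 20668313 on. GENCODE exons cover 24 bases of the Eif4a2 window and 4 bases of the Eif4g1 window.
Eif4a1: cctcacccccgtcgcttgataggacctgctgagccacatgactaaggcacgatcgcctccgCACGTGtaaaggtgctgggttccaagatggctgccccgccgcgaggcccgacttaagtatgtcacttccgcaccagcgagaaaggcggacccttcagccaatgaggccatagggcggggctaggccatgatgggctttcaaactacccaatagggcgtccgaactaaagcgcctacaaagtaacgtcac
Eif4a2: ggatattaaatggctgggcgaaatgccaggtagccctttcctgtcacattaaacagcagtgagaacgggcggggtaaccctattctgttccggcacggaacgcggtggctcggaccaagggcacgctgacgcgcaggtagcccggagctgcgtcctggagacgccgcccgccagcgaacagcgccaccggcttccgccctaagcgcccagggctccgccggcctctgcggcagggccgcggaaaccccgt
Eif4g1: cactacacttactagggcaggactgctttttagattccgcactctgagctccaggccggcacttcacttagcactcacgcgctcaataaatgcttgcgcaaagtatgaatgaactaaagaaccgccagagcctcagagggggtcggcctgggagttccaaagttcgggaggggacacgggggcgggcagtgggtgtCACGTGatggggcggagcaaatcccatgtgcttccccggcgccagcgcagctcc
Eif3f: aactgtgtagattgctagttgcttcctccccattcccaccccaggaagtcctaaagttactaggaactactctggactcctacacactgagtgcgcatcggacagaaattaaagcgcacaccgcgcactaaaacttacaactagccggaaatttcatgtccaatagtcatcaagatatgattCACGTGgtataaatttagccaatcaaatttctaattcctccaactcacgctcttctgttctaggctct

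The E-box starts 189 bases before the RefSeq start of Eif4a1, 54 before that of Eif4g1 and 68 before that of Eif3f, and these letters are not in the window of Eif4a2. Of the 52 members, 41 matched an entry of the promoter table used here, and 9 of these (21.95%) held CACGTG, against 6.86% of the 27025 genes in the promoter table. They were Eif1b, Eif3f, Eif3k, Eif4a1, Eif4e, Eif4g1, Eif4h, Eif5a and Eif5a2. CCGGAAG, an ETS-type motif searched on both strands (CTTCCGG on the other), was in 12 of 41 members (29.27%), against 7.826% of all genes in the table. For each motif the comparison is with every gene in that table, expressed here or not. The share among the tested genes was not computed. Both motifs were in the windows of Eif1b, Eif5a and Eif5a2. Genes with the E-box were on either side in library 1: Eif4a1 was low there and Eif3f high. A match is a description of the letters and not a measured binding site.

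Eif4e, the cap-binding protein, had 1452, 1903 and 1788 normalised counts in Sdhc cKO cells, against 1894, 1957 and 1881 in control cells. The mean was 1714 ± 234 in Sdhc cKO cells and 1911 ± 40.9 in control cells (SD, n = 3 each), with a log2 fold change of -0.17 (SE 0.11), and only Sdhc cKO library 2 overlapped the control values. The log2 fold change was -0.05 without Sdhc cKO library 1. Eif4e2, a homolog with little role in recruiting eIF4G, had 1779, 1646 and 1680 normalised counts in Sdhc cKO cells and 1799, 1684 and 1732 in control cells, and Eif4e3 had a log2 fold change of -0.08. Among the proteins that bind eIF4E and block it, Eif4ebp1 had 519, 926 and 795 normalised counts in Sdhc cKO cells, against 607, 962 and 895 in control cells. Library 1 held 60.3% of the mean of the other 2 in Sdhc cKO cells and 65.3% in control cells, the lowest share of any tested member in control cells and, after Eif3j2 with 58.8%, in Sdhc cKO cells. Eif4ebp2, the more abundant one per kilobase (423 against 357 normalised counts per kilobase), had 2279, 2481 and 2415 in Sdhc cKO cells and 2511, 2609 and 2381 in control cells. Eif4enif1, which carries eIF4E into the nucleus, had 2099, 1839 and 1963 in Sdhc cKO cells and 2264, 2020 and 1819 in control cells.

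Eif4g1, the main scaffold of eIF4F, was lower in every Sdhc cKO library than in every control library. It had 6048, 7453 and 7266 normalised counts in Sdhc cKO cells, against 7487, 8238 and 7518 in control cells, and the gap between the groups was narrow, at library 2 of the Sdhc cKO and library 1 of the control cells. The mean was 6922 ± 763 in Sdhc cKO cells and 7748 ± 425 in control cells (SD, n = 3 each), with a log2 fold change of -0.17 (SE 0.10; from -0.39 to 0.06 at 95%), a limma adjusted p of 0.978 and an exact permutation p = 0.1. Without Sdhc cKO library 1 its log2 fold change was -0.07. Eif4g2, a relative that lacks the eIF4E site and serves cap-independent initiation, had 10510, 17989 and 15489 normalised counts in Sdhc cKO cells, against 13235, 19483 and 18271 in control cells. Its log2 fold change was -0.23 (SE 0.22), with overlapping groups, and it was -0.0062 without Sdhc cKO library 1 and -0.40 without control library 1. Eif4g3, a scaffold paralog, had a log2 fold change of -0.10 and was highest in library 1 of both groups.

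The late factors all had values below 0, with 0 past the limma test. In all 3 same-numbered pairs, 4 of the 5 were lower in Sdhc cKO cells, against 21.8% of all tested genes. Eif5, which triggers GTP hydrolysis on eIF2, had 2771, 4441 and 3788 normalised counts in Sdhc cKO cells, against 3597, 4754 and 4427 in control cells, a log2 fold change of -0.23 (SE 0.18). It was -0.04 without Sdhc cKO library 1 and -0.38 without Sdhc cKO library 2. Eif5a had 11027, 13368 and 12708 in Sdhc cKO cells, against 12570, 14897 and 14813 in control cells. Its mean was 12367 ± 1207 in Sdhc cKO cells and 14093 ± 1320 in control cells (SD, n = 3 each), with a log2 fold change of -0.19 (SE 0.11), and the groups overlapped. Its log2 fold change was -0.11 without Sdhc cKO library 1. Eif5a2, its scarce paralog, had 182, 256 and 227 normalised counts in Sdhc cKO cells, against 274, 267 and 279 in control cells, with no overlap. Its log2 fold change was -0.32 (SE 0.14, 95% interval -0.65 to 0.02, limma adjusted p = 0.978; exact permutation p = 0.1), and it was -0.18 without Sdhc cKO library 1. Eif6, which keeps the ribosomal subunits apart, had 1044, 1382 and 1312 in Sdhc cKO cells and 1097, 1520 and 1442 in control cells, and Eif5b, the GTPase of subunit joining, had a log2 fold change of -0.12.

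Counts of members whose groups did not overlap were near the background of all genes. Eif2ak3 was the 1 of 51 that was higher in every Sdhc cKO library, a pattern shown by 4.51% of all tested genes. Eif2s1, Eif3i, Eif4g1 and Eif5a2 were the 4 of 51 that were lower in every Sdhc cKO library, against 5.64% of all tested genes. Both directions together gave 5 of 51 members, against 10.2% of all genes. Between same-numbered libraries, 25 of 51 members were lower in Sdhc cKO cells in all 3 pairs, against 21.8% of all genes, and 1 member, Eif2ak3, was higher in all 3, against 14.6%. With the replicate number as a block, limma called 0 of 51 members and 1 gene in all (0.00787%), and 12 of 51 members had an unadjusted p under 0.05, against 12.6% of all genes.

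As a set, the members stood lowest in Sdhc cKO library 1. The median deviation of the 51 members from their mean over the 6 libraries was -0.14, 0.04 and -0.02 (log2) in Sdhc cKO libraries 1 to 3 and -0.03, 0.08 and 0.08 in control libraries 1 to 3. Sdhc cKO library 1 held the lowest value for 32 of 51 members. The 52 members took 0.966%, 1.08% and 1.03% of all normalised counts in Sdhc cKO cells and 1.03%, 1.12% and 1.09% in control cells. Without Sdhc cKO library 1, 40 of 51 members had a value below 0 and their median was -0.05, and without library 1 of both groups these were 46 of 51 and -0.08. Among the 28 members given in full, leaving out Sdhc cKO library 1 brought the log2 fold change of 22 closer to 0 by over 1.5 times or across it. Leaving out control library 2 did so for 12 and control library 3 for 7, and leaving out control library 1 or Sdhc cKO library 2 took 12 each farther from 0 by over 1.5 times.

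**Figure D4:**
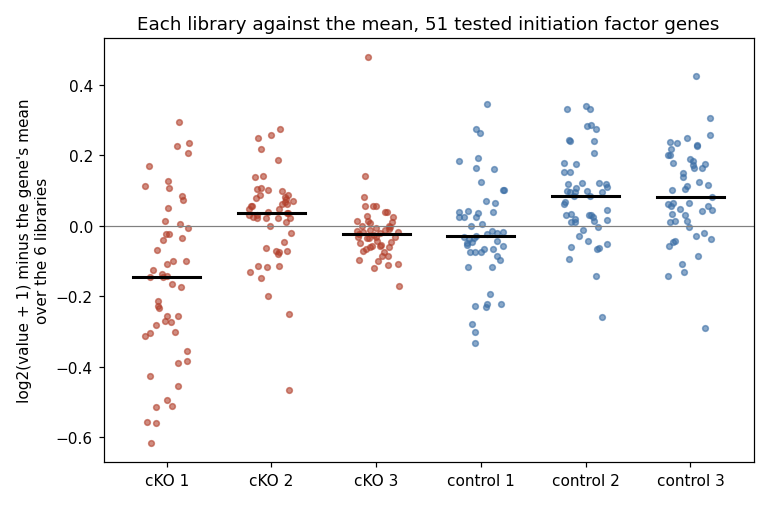
Deviation of each of the 51 tested members from its own mean over the 6 libraries (log2), per library, Sdhc cKO left of control, with the median as a black bar. Sdhc cKO library 1 has the lowest median, -0.14, and control libraries 2 and 3 the highest, 0.08 each.

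The same factors were low, or high, in library 1 of both groups. For 42 of 51 members (82.35%) library 1 deviated from the mean of the other 2 libraries in the same direction in Sdhc cKO and in control cells, against 71.45% of all tested genes. Of these, 30 members were low in both and 12 high in both. Across the 51 members the 2 deviations had a Pearson correlation of 0.772 (Spearman 0.721), against 0.579 (0.557) across all tested genes. These are descriptions across genes that share libraries, and genes are not independent replicates. Beside Eif4ebp1 and Eif4a1, the members low in library 1 included Eif4g2, at 62.8% of the other 2 libraries in Sdhc cKO cells and 70.1% in control cells. Eif3c was at 65.7% in Sdhc cKO cells and 69.1% in control cells, Eif3b at 66.4% in Sdhc cKO cells and 70.0% in control cells, and Eif5 at 67.3% in Sdhc cKO cells and 78.4% in control cells. Beside Eif4a2, those high in both included Eif2ak4, at 114% in Sdhc cKO cells and 140% in control cells, and Eif3f, at 123% in Sdhc cKO cells and 108% in control cells.

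**Figure D5:**
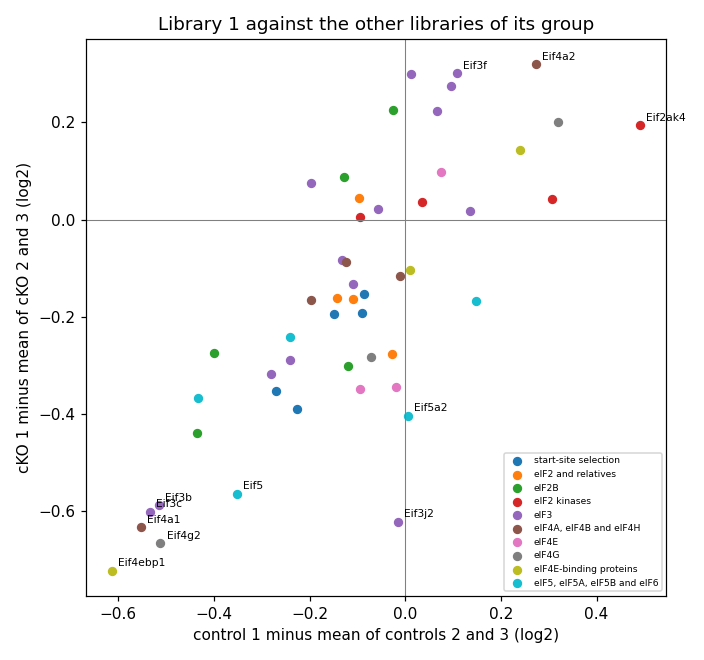
Each tested member's log2 value in library 1 minus the mean of the other 2 libraries of its group, Sdhc cKO on the vertical and control on the horizontal axis. Of 51 members, 30 lie in the lower left field, among them Eif4ebp1, Eif4g2 and Eif4a1, and 12 in the upper right, among them Eif4a2.

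When the share of Y-linked reads entered the limma fit as a covariate, 10 of 51 members passed the test, against 6.5% of all tested genes. At an unadjusted p under 0.05 there were 24 of 51, against 25.8% of all genes. Of the 10, 9 were lower in Sdhc cKO cells, against 4.86% of all tested genes, and 1 was higher, against 1.65%. The 9 were Eif3b (-0.46), Eif4g2 (-0.47), Eif5 (-0.43), Eif1a (-0.42), Eif4ebp1 (-0.42), Eif2b1 (-0.36), Eif2s1 (-0.32), Eif5a (-0.28) and Eif4g1 (-0.26), with limma adjusted p between 0.0158 for Eif1a and 0.0459 for Eif4ebp1. The 1 higher member was Eif4a2 (0.29, limma adjusted p = 0.0334). In this fit 41 of 51 members had a value below 0 and their median was -0.13. edgeR with the same covariate called 6 members, against 5.28% of all genes: Eif1a, Eif2s1, Eif3b, Eif4g2 and Eif5 lower (3.35% of all genes) and Eif4a2 higher (1.93%).

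These calls changed when single libraries were left out. Such fits also have less power, so the loss of a given library and the loss of power cannot be told apart. In the limma fit with the covariate, 0 members were called without Sdhc cKO library 1 and 0 without control library 2, in fits that called 0.0866% and 0.701% of all tested genes. Without Sdhc cKO library 2 there were 5 members called, against 4.39% of all genes, and without Sdhc cKO library 3 there were 3, against 1.59%. Without control library 1 there were 14, against 7.5% of all genes, and without control library 3 there were 6, against 4.4%. The median of the members lay between -0.12 and -0.17 in these 6 fits, and 37 to 43 of 51 had a value below 0. The lowest median, -0.17, was that of the fit without control library 2. The covariate was near 0 in library 1 of both groups, and among the other libraries it was higher in both Sdhc cKO libraries than in both control libraries, so it is not independent of genotype.

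A further list outside the eIF family held regulators of initiation and also Atf4 and Ddit3, which encode transcription factors. Of its 25 tested genes, 18 had a log2 fold change below 0, with a median of -0.11, and limma called 0. Ddit3, which encodes the stress-induced factor CHOP, had 636, 681 and 686 normalised counts in Sdhc cKO cells, against 584, 490 and 560 in control cells, with no overlap and a log2 fold change of 0.30 (SE 0.10). Atf4, whose translation is favoured when eIF2 is phosphorylated, had 2467, 3905 and 3403 in Sdhc cKO cells and 2775, 4320 and 4286 in control cells, and was lowest in library 1 of both groups. Mknk1, an eIF4E kinase, was the other gene with every Sdhc cKO value above every control value (0.11). Ddit3 and Mknk1 made 2 of 25, against 4.51% of all tested genes. Pabpc1, the poly(A)-binding protein that ties the tail to eIF4G, had 53803, 54948 and 53187 normalised counts in Sdhc cKO cells, against 55849, 57552 and 55228 in control cells, with no overlap and a log2 fold change of -0.06. Denr (-0.13) and Mcts1 (-0.22), partners in reinitiation, and Abcf1 (-0.14) were likewise lower in every Sdhc cKO library. With Pabpc1 they made 4 of 25, against 5.64% of all tested genes. With the Y-linked covariate limma called 6 of these 25 genes, against 6.5% of all tested genes. Of these, 5 were lower, against 4.86%: Pabpc4 (-0.55), Abce1 (-0.45), Atf4 (-0.44), Bzw1 (-0.39) and Ddx3x (-0.34). The 1 higher, against 1.65%, was Pdcd4 (0.25), an inhibitor of eIF4A. These calls changed with single libraries as those of the members did: 0 were left without Sdhc cKO library 1, and 1, Abce1, without control library 2.

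Elongation and termination factors lay nearer to 0. Of 15 tested, 10 had a value below 0, the median was -0.04 and limma called 0. Eef1a1, which delivers aminoacyl-tRNA, had 394910, 344840 and 337880 normalised counts in Sdhc cKO cells and 348030, 362210 and 353400 in control cells, and Eef2, the translocase, had a log2 fold change of -0.04. Gspt1, a release factor, was lower in every Sdhc cKO library (-0.18, SE 0.09), 1 of 15 against 5.64% of all tested genes. With the covariate limma called 1 of 15, Eefsec (-0.29), against 6.5% of all tested genes. Eefsec was called in 1 of the 6 fits with a library left out. In the list of ribosomal protein S6 and the mTORC1 pathway, 7 of 14 tested genes lay below 0 and 7 above, and limma called 0. Rraga, a GTPase of the amino acid signal to mTORC1, was lower in every Sdhc cKO library (-0.20, SE 0.09), 1 of 14 against 5.64% of all tested genes. Rps6 had 30830, 21134 and 21112 normalised counts in Sdhc cKO cells and 21891, 20294 and 22409 in control cells, a log2 fold change of 0.16 set by Sdhc cKO library 1. With the covariate it was the 1 of 14 called (0.31), against 6.5% of all tested genes. Rps6 was called in 0 of the 6 fits with a library left out.

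Shared sequence limits some of these values. For 18 members a transcript of another gene, mostly a pseudogene, is at least 95% identical over at least 300 bases, and how the counting treated such reads is not given. Exon bases are shared with another gene by 22 members, and 5 of them share at least 10% with a coding gene: Eif1ad with Banf1 (15.3%), Eif3j1 with Spg11 (19.0%), Eif4e3 with Gm20696 (14.8%), Eif5b with Rev1 (16.9%) and Eif4ebp3 (67.3%). Eif3d shares 43.3% with the antisense gene Gm17638, and without a stated strand setting their reads cannot be told apart.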

How the data were processed

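RNA-seq of 3 Sdhc cKO and 3 control libraries was used, grouped by their titles. STAR, HTSeq, DESeq2 and mm10 are listed by the submitters' processing notes, without versions, settings or strandedness. Each deposited value is a signal that, judged from the values, is reads divided by a size factor: 100% were whole multiples of 1 step within 0.01, so that reads could be recovered. Depth was 18144933 to 21983821 reads. In all, 4 rows shared a gene symbol with another row and were kept as deposited.

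Tests used limma 3.58.1 (R 4.3.3, trend) on log2(value + 1), so that fold changes of low genes are understated, for genes above 10 in 3 or more libraries, with Benjamini-Hochberg adjustment at 0.05 over 12699 genes. Alternatives were edgeR 4.0.16 (quasi-likelihood) and DESeq2 1.42.0 on recovered reads, other scalings, filters and pseudocounts, array weights, a replicate block, a Y-linked covariate and libraries left out. The scripts were tested on simulated data. Deviations from the group means of same-numbered libraries correlated at 0.579, 0.458 and 0.188. Sdhc cKO library 3 correlated more with control library 2, at 0.272, so the values do not single out the third pair. The numbers were treated as pairs from the data, and the labels give no pairing. Members in full were, per role, the 2 most abundant and the 1 with the largest fold change, those without overlap and those called in any fit, and some others chosen after their values were seen. Members and gene lists were chosen with earlier results of these data known. Exon lengths and coordinates are from GENCODE M21 (GRCm38), promoters from RefSeq (GRCm38.p6).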

Additional observations from a re-analysis of the deposited data

How the results depend on the processing

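The count of members called was 0 under all scalings, filters and pseudocounts, edgeR, DESeq2, array weights, each library left out and both number-1 libraries left out. It was 10 with the Y-linked covariate and 6 with edgeR and that covariate, a fit chosen after seeing the data, as was leaving libraries out of the covariate fit. Over all genes the count was 2 with DESeq2, 1 with array weights, 826 with the Y-linked covariate, 670 with edgeR and that covariate, 3 without both number-1 libraries and 0 to 1 with 1 library left out. The replicate block, which pairs libraries of the same number, gave 1 gene and 0 members. Members below 0 numbered 40 to 46 and their median lay between -0.05 and -0.13, apart from the covariate fits with a library left out, which gave 37 to 43 and -0.12 to -0.17. Over 28 members and 20 settings, 559 values were compared: 522 kept direction and call, 16 passed the threshold only under the alternative, all of these with the Y-linked covariate, and 21 changed sign, in 9 members, with values up to 0.0912 after the change. With upper-quartile scaling Eif1 was 0.0102 and Eif4e2 0.00337. With array weights Eif3h was -0.0187 and Eif4enif1 0.00200. With the Y-linked covariate Eif2b2 was 0.00961, Eif4e2 0.00587 and Eif4enif1 0.01004, and with edgeR and that covariate they were 0.0336, 0.0295 and 0.0289. Without both number-1 libraries Eif3h was -0.0415. With 1 library left out the values ranged from -0.0740 to 0.0404 for Eif1, -0.22 to 0.0025 for Eif2b5, -0.12 to 0.0014 for Eif2b2, -0.0316 to 0.12 for Eif3f, -0.0458 to 0.11 for Eif3h, -0.36 to 0.0331 for Eif4a1, -0.35 to 0.0912 for Eif4ebp1 and -0.12 to 0.0351 for Eif4enif1. The cause was not tested. With 3 libraries a group, the median standard error of 0.10 limits what could be called, and Eif3j2 and Eif4ebp3 rest on few reads.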

Other observations

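Some relations between members were computed after their values had been seen. The ratio of Eif4a1 to Eif4a2 normalised counts was 1.41, 2.86 and 2.62 in Sdhc cKO libraries 1 to 3, against 1.90, 3.50 and 3.24 in control libraries 1 to 3. It was lower in Sdhc cKO cells at each library number, but the groups overlapped and a 2-sided exact permutation test gave p = 0.5 (n = 3 each). The ratio of Eif4ebp1 and Eif4ebp2 together to Eif4e was 1.93, 1.79 and 1.80 in Sdhc cKO cells and 1.65, 1.82 and 1.74 in control cells, again with overlap (exact permutation p = 0.3, n = 3 each). The second ratio adds the counts of both genes without correcting for their length, so the longer Eif4ebp2 weighs more in it.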
